A study of Homo sapiens with 8 samples.

Results

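The peroxiredoxins PRDX1 to PRDX6 were taken as the rows whose gene symbol is that of one of the 6 human family members, 6 of the 25192 gene rows in each table, and no other row carried a PRDX symbol. Messenger RNA was sequenced in 8 libraries from the human colorectal cancer cell lines HT29 and SW480, both of which carry truncated APC. In each line, 2 libraries came from cells transfected with control siRNA and 2 from cells transfected with PRDX2 siRNA, all collected at 36 h. HT29 cells were grown in McCoy's 5A medium and SW480 cells in RPMI1840, both with fetal bovine serum. A replicate is 1 of the 2 libraries of a group. The study calls the HT29 pairs duplicate experiments, and nothing further on how the duplicates of either line were made is given in the sources used here, so p-values measure only the spread between these libraries, which may be technical. The study lists 2 PRDX2 siRNAs, PrxII-1 and PrxII-2, and which of them was used for the sequenced cells is not given in the sources used here. The comparison of PRDX2 siRNA with control siRNA asked how the family's mRNA pool changed when PRDX2 was lost, and whether any paralog was higher in its place.

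Peroxiredoxins are thiol peroxidases that reduce hydrogen peroxide, peroxynitrite and organic hydroperoxides through a peroxidatic cysteine that is oxidized to a sulfenic acid. In the typical 2-Cys enzymes PRDX1 to PRDX4, this cysteine then forms a disulfide with a resolving cysteine of the partner subunit, which thioredoxin reduces. PRDX1 and PRDX2 are mainly cytosolic, PRDX3 is mitochondrial, PRDX4 is resident in the endoplasmic reticulum or secreted, PRDX5 is the atypical 2-Cys enzyme of mitochondria, peroxisomes and cytosol, and PRDX6 is the 1-Cys enzyme, which is reduced with glutathione and also acts as a phospholipase.

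All members have the peroxidatic cysteine, with the codon TGC in PRDX1, PRDX2 and PRDX6 and TGT in PRDX3, PRDX4 and PRDX5. Each line below gives 27 bases of the coding strand, 5′ to 3′, from the GENCODE transcripts of GRCh37 (hg19), with the cysteine codon in capitals.
PRDX1: ttcacctttgtgTGCcccacggagatc
PRDX2: ttcacttttgtgTGCcccaccgagatc
PRDX3: ttcacctttgtgTGTcctacagaaatt
PRDX4: ttcacatttgtgTGTccaactgaaatt
PRDX5: ttcacccctggaTGTtccaagacacac
PRDX6: tttaccccagtgTGCaccacagagctt
In PRDX2 this stretch lies at chr19:12911822-12911848 on the minus strand, in exon 3 of 6, and the cysteine is codon 51 of 198. In PRDX1 it lies at chr1:45981418-45981444 on the minus strand, in exon 3 of 6, with the cysteine at codon 52 of 199. In PRDX6 it lies at chr1:173450496-173450522 on the plus strand, in exon 2 of 5, at codon 47 of 224. The stretch crosses an exon junction in the other 3 members, where the cysteine is codon 108 of 256 in PRDX3, codon 124 of 271 in PRDX4 and codon 100 of 214 in PRDX5. Aligned over their translated coding sequences, PRDX2 was identical to PRDX1 at 77.8% of residues, to PRDX4 at 68.7% and to PRDX3 at 64.1%, against 32.6% to PRDX6 and 29.2% to PRDX5.

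The siRNA sites show which paralogs a PRDX2 siRNA could resemble. Below are the 19 bases in PRDX2 that match each siRNA, and the closest match to PrxII-2 in PRDX1, with bases that differ from the siRNA in capitals.
PrxII-1 site in PRDX2: cgcttgtctgaggattacg
PrxII-2 site in PRDX2: aggaatatttctccaaaca
PrxII-2, closest match in PRDX1: aAgaatatttctccaaGca
The PrxII-1 site lies at chr19:12911025-12911043, in exon 4 of PRDX2, over codons 110 to 116. Its closest matches in the coding sequences of the other members had 6 to 9 mismatches, the fewest in PRDX5. The PrxII-2 site lies at chr19:12907902-12907920, in exon 6, over codons 191 to 197. Its closest match in PRDX1, at chr1:45977008-45977026 in exon 6, had 2 mismatches and an identical run of 14 bases, and those in the other members had 7 to 9 mismatches.

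The expected counts, the reads assigned to each gene by the authors' software, totalled 8857442 in the shallowest library and 10164137 in the deepest, where 3 counts are 0.339 and 0.295 CPM (counts scaled by library size). These totals are far below the read numbers that the study's methods give for HT29 cells, and whether the deposited tables rest on a subset of the reads is not known. Each member had between 309 and 3679 expected counts in every library, so all 6 passed the filter on low counts in every comparison. The SW480 control duplicates stood apart from each other. Their counts differed by a chi-square of 14.0 per degree of freedom, against 1.40, 1.51 and 1.94 in the other 3 pairs of duplicates, and their log2 ratio across genes followed transcript GC content with a Spearman's rho of 0.79 (10324 genes, which are not independent). Control replicate 1 of SW480 cells had rho of 0.71 and 0.73 against the 2 PRDX2 siRNA libraries, and control replicate 2 had 0.20 and 0.27. Transcript GC content was 60.6% for PRDX5, 58.1% for PRDX2, 50.3% for PRDX4, 46.5% for PRDX1, 45.5% for PRDX6 and 40.4% for PRDX3. From control replicate 1 to control replicate 2 of SW480 cells, PRDX5 differed by 0.36 and PRDX2 by 0.23 on the log2 scale, and PRDX1, PRDX3, PRDX4 and PRDX6 by -0.20, -0.13, -0.37 and -0.13. For the members, the response of SW480 cells to PRDX2 siRNA is therefore given with and without each control library, and with each library corrected for its trend along GC content. The comparison of the lines under control siRNA is given without that correction, and only for some members without an SW480 control library. For the other genes, SW480 results are given only for some of the calls that these settings change. A fit without 1 library leaves 1 in that group, so its p-values rest on the spread of the groups that keep both libraries. All 9 markers of colorectal epithelium on the list were above 1 TPM in HT29 cells and 7 of 9 in SW480 cells, where KRT20 and LGALS4 were at 0.57 to 1.34 TPM. Of the 4 mesenchymal genes listed, VIM was at 620.2 to 794.1 TPM in SW480 cells and at most 0.56 in HT29 cells. ZEB1 was at 14.11 to 15.95 TPM in SW480 cells and at most 0.20 in HT29 cells. COL1A1 was at 7.35 to 9.33 and 1.04 to 1.94 TPM, and COL1A2 at most 0.19 in every library. The leukocyte markers PTPRC and CD3E were at 0 and at most 0.16 TPM in every library. CD68 was at 12.63 to 27.94 TPM over the 8 libraries. LYZ was at 4429 to 4652 TPM in HT29 cells and at 4.80 to 7.33 in SW480 cells. PRDX2 is abundant in red cells, and of the erythroid genes HBB and ALAS2 were at 0 in every library, with HBA1 and HBA2 together at 13.2 to 20.7 TPM in SW480 cells and at most 0.45 in HT29 cells.

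Under control siRNA, PRDX1 was the most abundant member of the family in both lines and PRDX2 the second. Levels are given in TPM, an abundance scaled by transcript length and library depth, so that levels are per length and can be compared between genes. In HT29 control libraries PRDX1 was at 711.4 ± 11.5 TPM (SD, n = 2), followed by PRDX2 at 337.4 ± 8.6, PRDX3 at 320.7 ± 4.2 and PRDX5 at 303.7 ± 8.9. PRDX6 followed at 200.9 ± 11.3 TPM and PRDX4 was the lowest at 94.5 ± 5.9. No neighbours in this order overlapped, although PRDX2, PRDX3 and PRDX5 were close to each other. In SW480 control libraries PRDX1 was at 836.2 ± 90.5 TPM and PRDX2 at 521.0 ± 55.5, clear of each other and of the rest. PRDX3 at 280.7 ± 19.6, PRDX6 at 274.2 ± 19.1, PRDX4 at 238.4 ± 45.8 and PRDX5 at 209.3 ± 34.3 TPM followed, and each of these 4 overlapped its neighbour in the order. Among all genes of a library, PRDX1 ranked between 129 and 177 by TPM in the 8 libraries and PRDX4 in HT29 cells between 1867 and 2364. In these bulk samples, fewer cells expressing a gene and less RNA per cell cannot be told apart.

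**Figure D1:**
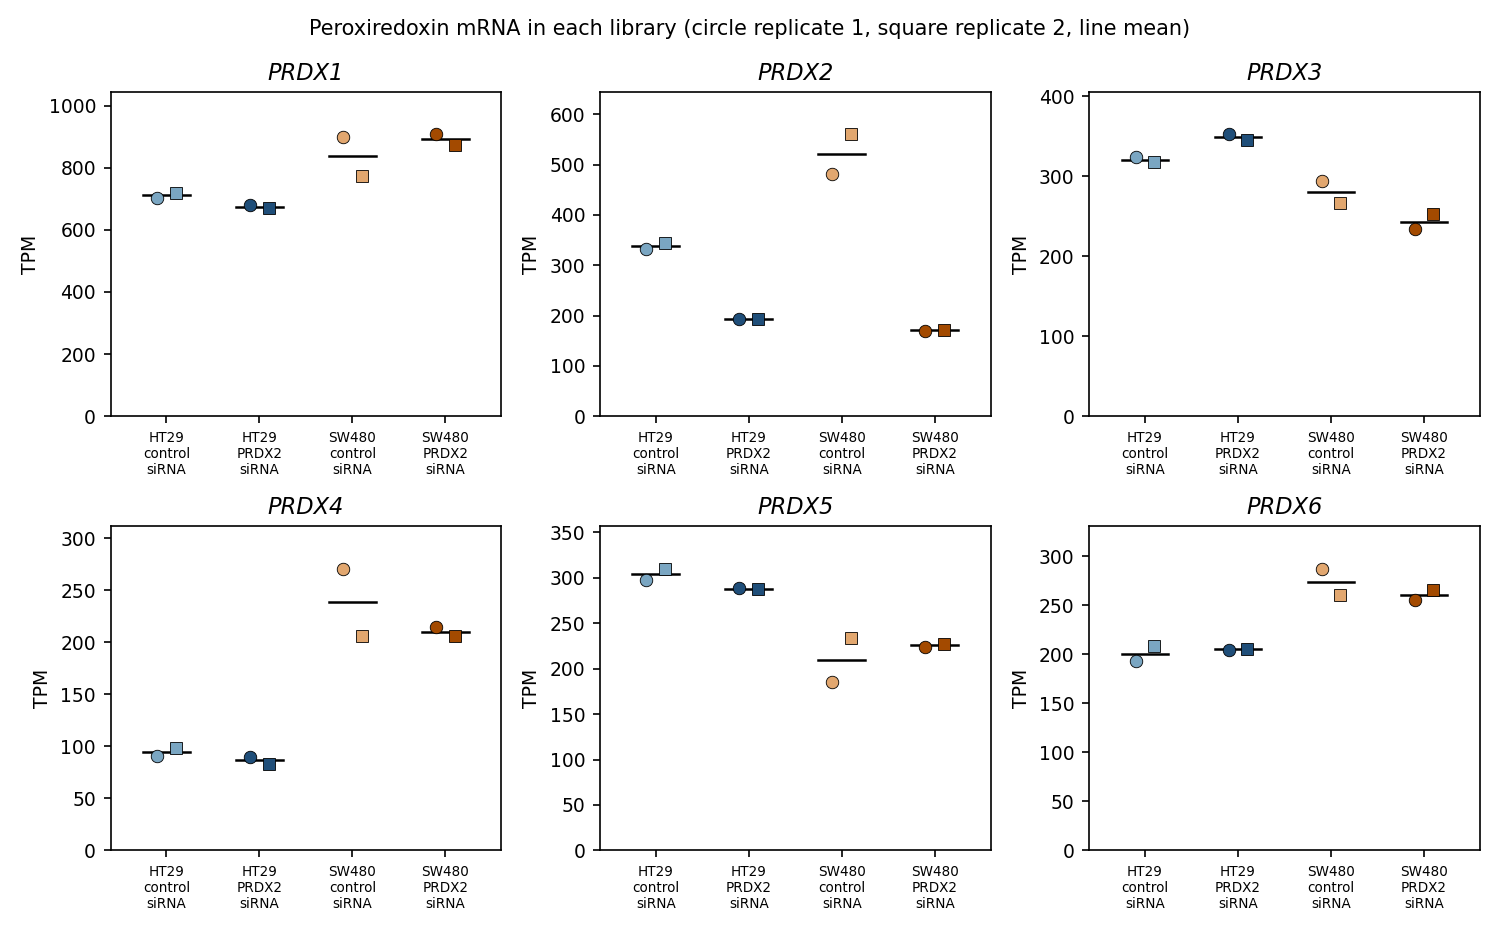
TPM of each peroxiredoxin in each of the 8 libraries, by group on the horizontal axis, with circles for replicate 1, squares for replicate 2 and a line at the mean of the 2. PRDX2 falls from 331.3 and 343.5 to 193.4 and 193.6 TPM in HT29 cells and from 481.7 and 560.2 to 169.2 and 171.9 TPM in SW480 cells, and the SW480 control duplicates are the most spread pair for each of the 6 genes.

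Between the lines under control siRNA, PRDX4 was higher in SW480 cells and PRDX5 lower, and PRDX2 and PRDX6 were higher and PRDX3 lower by less. PRDX4, which oxidizes protein disulfide isomerases in the endoplasmic reticulum, was at 90.3 and 98.7 TPM in HT29 cells and at 270.8 and 206.0 in SW480 cells. The SW480 libraries lay above both HT29 libraries, with a log2 difference of 1.2 (SE 0.15, adjusted p = 1.303e-04, by the quasi-likelihood test of edgeR and Benjamini-Hochberg adjustment over all genes tested, as for each adjusted p below unless another test is named). PRDX5 was at 297.4 and 310.0 TPM in HT29 cells and at 185.1 and 233.5 in SW480 cells, below both HT29 libraries, with a log2 difference of -0.68 (SE 0.14, adjusted p = 0.002133). PRDX2, PRDX6 and PRDX3 had log2 differences of 0.49 (SE 0.11, adjusted p = 0.004467), 0.32 (SE 0.11, adjusted p = 0.02545) and -0.32 (SE 0.10, adjusted p = 0.01978), and in each the groups did not overlap in TPM. PRDX1 had a log2 difference of 0.10 (95% interval -0.13 to 0.34, adjusted p = 0.4092). Thus 5 of 6 members passed the test, 3 higher and 2 lower in SW480 cells, where 67.5% of the 14346 genes tested passed it, 35.7% higher and 31.8% lower. The line, its medium and its sequencing cannot be told apart in this comparison.

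Which of these differences passed the test depended on the libraries left in the fit. Without 1 HT29 control library, the spread came from the SW480 control duplicates alone, the pair that stood apart. Calls lost there therefore do not show that a difference rested on an HT29 library. Without 1 SW480 control library, the spread came from the HT29 control duplicates alone. Without HT29 control replicate 1 or 2, PRDX2 (log2 difference 0.43 and 0.49, adjusted p = 0.1414 and 0.09308), PRDX3 (-0.34 and -0.37, adjusted p = 0.2441 and 0.2057) and PRDX6 (0.23 and 0.35, adjusted p = 0.4667 and 0.2503) no longer passed the test, where 50.3% and 50.1% of all genes did. PRDX4 ranged from 1.08 to 1.44 and PRDX5 from -0.43 to -0.81 over the 4 libraries left out in turn, and both passed it each time. PRDX1 passed it only without SW480 control replicate 2 (0.26, adjusted p = 3.177e-06), where 77.4% of all genes did, and without SW480 control replicate 1 it was at 0.08. On the TPM scale, where the median of all genes tested was itself at 0.15 against 0.04 in edgeR's fit, PRDX3 was at -0.19 with an adjusted p of 0.1058 by limma, which called 65.8% of all genes.

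PRDX2 siRNA lowered its target in both lines, and more in SW480 cells. PRDX2 was at 331.3 and 343.5 TPM in HT29 control libraries and at 193.4 and 193.6 TPM after PRDX2 siRNA. The groups were far apart. On the log2 scale the change was -0.87 (SE 0.05, adjusted p = 1.154e-09), so that PRDX2 fell by 45.1% (95% interval of the change -48.9 to -41.1%). In SW480 cells it was at 481.7 and 560.2 TPM in control libraries and at 169.2 and 171.9 TPM after PRDX2 siRNA. The log2 fold change was -1.70 (SE 0.12, adjusted p = 6.175e-04), so that PRDX2 fell by 69.2% (95% interval of the change -74.5 to -62.8%). It was -1.81 without SW480 control replicate 1, -1.58 without control replicate 2 and -1.85 with the correction for GC content, and past the threshold each time. The difference of the effect between lines was -0.84 (SE 0.12, adjusted p = 0.01278), larger in SW480 cells, where PRDX2 also started higher. Without any 1 HT29 library or 1 PRDX2 siRNA library of SW480 cells it was -0.86 to -0.81 and did not pass the test (adjusted p from 0.1219 to 0.1592). For this difference PRDX2 was the only member to pass the test in edgeR's fit, where 1.12% of the 14772 genes tested passed it, 0.508% upward and 0.616% downward. PRDX1 also passed it, with a positive difference, with the correction for GC content (0.29, adjusted p = 0.01106), where 6.32% of all genes did. Fits without 1 SW480 control library leave 1 library in that group, so only sizes are given for the other members. Without SW480 control replicate 1 and 2, the difference was 0.25 and 0.06 for PRDX1 and -0.29 and -0.40 for PRDX3. That of PRDX5 was 0.37 without replicate 2. The PRDX2 level that remained was 193.5 ± 0.16 TPM in HT29 cells and 170.5 ± 1.9 TPM in SW480 cells, closer to each other than under control siRNA and in the reverse order.

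With PRDX2 lost, no other member rose in either line in edgeR's fit. In HT29 cells 2 of 6 members passed the test, PRDX2 and PRDX1, both lower, where 17.6% of the 12961 genes tested passed it, 7.76% higher and 9.82% lower. In SW480 cells only PRDX2 passed it, where 3.32% of the 14112 genes tested did, 1.22% higher and 2.1% lower. Of the other 5 members in SW480 cells, 0 passed by edgeR, by DESeq2 (4.86% of all genes) or by limma on log2(TPM + 1) (1.52%), and 1, PRDX3, had an unadjusted p under 0.05 by edgeR, with a lower value. A larger share of all genes passed in SW480 cells with the correction for GC content (16.4%), with all 8 libraries fitted together (16.3%), without control replicate 1 (24.6%) and without control replicate 2 (52.8%), and calls of members under those settings stand against these shares.

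PRDX1, the cytosolic enzyme closest to PRDX2 in sequence, fell slightly in HT29 cells. It was at 703.3 and 719.6 TPM in HT29 control libraries and at 678.4 and 670.8 TPM after PRDX2 siRNA. Both PRDX2 siRNA libraries lay below both control libraries, with a log2 fold change of -0.14 (SE 0.03, 95% interval -0.21 to -0.07, adjusted p = 0.00531). DESeq2 gave -0.14 with an adjusted p of 0.04112 and called 6.72% of all genes, and leaving out each library in turn gave -0.16 to -0.13, past the threshold each time. The call was not made by limma on log2(TPM + 1), at -0.08 with an adjusted p of 0.09169 (13.9% of all genes called), nor with all 8 libraries fitted together, at -0.14 with an adjusted p of 0.4892 (1.25% of all genes called). In SW480 cells PRDX1 was at 900.2 and 772.2 TPM in control libraries and at 907.6 and 874.4 TPM after PRDX2 siRNA. The PRDX2 siRNA libraries overlapped the widely spaced control libraries, and the log2 fold change was 0.01 (SE 0.11, 95% interval -0.23 to 0.25, adjusted p = 0.971). It was 0.11 without control replicate 1 and -0.10 without control replicate 2 (adjusted p = 0.09374 and 0.08722), so its direction turned with the control library used, and 0.12 (adjusted p = 0.1768) with the correction for GC content. Whether PRDX1 mRNA was itself targeted through the PrxII-2 match shown above was not tested.

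PRDX3, the mitochondrial member, had values of opposite sign in the lines and passed the test in neither. In HT29 cells it was at 323.7 and 317.7 TPM in control libraries and at 352.4 and 344.7 TPM after PRDX2 siRNA. The PRDX2 siRNA libraries lay above both controls in TPM, but the log2 fold change in counts was 0.06 (SE 0.04, 95% interval -0.02 to 0.13, adjusted p = 0.3238). On log2(TPM + 1), limma gave 0.12 with an adjusted p of 0.04027, on a scale where the median of all genes tested was at 0.06. In SW480 cells PRDX3 was at 294.6 and 266.8 TPM in control libraries and at 234.1 and 252.2 TPM after PRDX2 siRNA, below both controls. On the log2 scale PRDX3 had -0.30 (SE 0.11, 95% interval -0.54 to -0.05, adjusted p = 0.1493). It was -0.23 without control replicate 1 and -0.36 without control replicate 2, in fits whose spread came from the PRDX2 siRNA duplicates alone. PRDX3 passed the test with all 8 libraries fitted together (-0.29, adjusted p = 0.02351). With the correction for GC content its log2 fold change was -0.09 (adjusted p = 0.4512). That correction also took the difference between lines from -0.35, the value in edgeR's fit, to -0.14 (adjusted p = 0.3474). The difference between lines was -0.35 (SE 0.10, 95% interval -0.58 to -0.12) with an adjusted p of 0.1176, and it passed the test without SW480 control replicate 1 (-0.29, adjusted p = 0.009106) and replicate 2 (-0.40, adjusted p = 1.042e-04), where 9.32% and 35.7% of all genes passed it.

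PRDX4, the member of the endoplasmic reticulum, did not pass the test in either line. In HT29 cells it was at 90.3 and 98.7 TPM in control libraries and at 90.2 and 83.2 TPM after PRDX2 siRNA. The groups all but touched, and the log2 fold change was -0.19 (SE 0.08, 95% interval -0.35 to -0.02, adjusted p = 0.115). In SW480 cells it was at 270.8 and 206.0 TPM in control libraries and at 214.3 and 205.8 TPM after PRDX2 siRNA, which overlapped. Its log2 fold change there was -0.27 (SE 0.14, 95% interval -0.58 to 0.05, adjusted p = 0.2698). The SW480 value depended on the control library used, at -0.45 without control replicate 2 and -0.07 without control replicate 1. In those fits 1 control library was left, and the spread came from the PRDX2 siRNA duplicates alone. With the correction for GC content PRDX4 was at -0.23 (adjusted p = 0.148).

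PRDX5, the atypical 2-Cys enzyme with the highest GC content of the family, was close to the threshold in HT29 cells. It was at 297.4 and 310.0 TPM in HT29 control libraries and at 288.4 and 287.2 TPM after PRDX2 siRNA, below both controls. This gave a log2 fold change of -0.14 (SE 0.05, 95% interval -0.24 to -0.04) with an adjusted p of 0.05245. It passed the test without HT29 control replicate 1 (-0.17, adjusted p = 0.03149, with 15.8% of all genes called) and with the correction for GC content (-0.12, adjusted p = 0.04802, with 22.4% called). In SW480 cells PRDX5 was at 185.1 and 233.5 TPM in control libraries and at 223.3 and 227.5 TPM after PRDX2 siRNA. Both PRDX2 siRNA libraries lay between the controls, and the log2 fold change was 0.02 (SE 0.14, 95% interval -0.29 to 0.33, adjusted p = 0.9371). It was 0.21 without control replicate 2, the only setting in which a paralog passed the test as higher in SW480 cells. The spread in that fit came from the PRDX2 siRNA duplicates alone. Without control replicate 1 PRDX5 was at -0.15 and with the correction for GC content at -0.18 (adjusted p = 0.09032), so that its direction turned.

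PRDX6, the 1-Cys enzyme with phospholipase activity, had the smallest log2 fold change of the family in HT29 cells. It was at 192.9 and 208.9 TPM in HT29 control libraries and at 205.0 and 205.1 TPM after PRDX2 siRNA, between the controls. In counts it had -0.03 on the log2 scale (SE 0.05, 95% interval -0.13 to 0.06, adjusted p = 0.6831). In SW480 cells it was at 287.6 and 260.7 TPM in control libraries and at 255.8 and 265.6 TPM after PRDX2 siRNA, which overlapped. Its log2 fold change was -0.16 (SE 0.11, 95% interval -0.40 to 0.08, adjusted p = 0.378). PRDX6 passed the test as lower only without control replicate 2 (-0.23), in a fit whose spread came from the PRDX2 siRNA duplicates alone. It was at -0.10 without control replicate 1 and -0.03 with the correction for GC content.

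**Figure D2:**
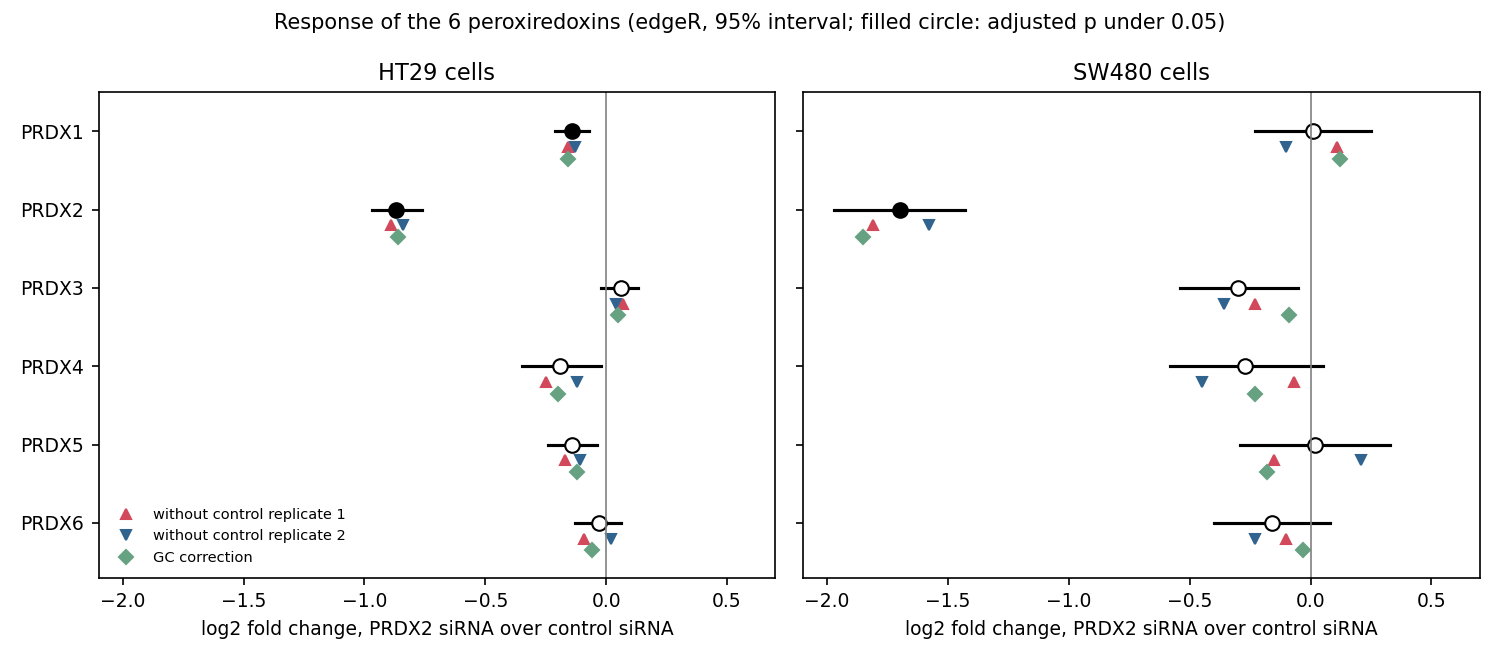
Log2 fold change of each peroxiredoxin, PRDX2 siRNA over control siRNA, in HT29 and SW480 cells, with edgeR's estimate as a circle (filled where the adjusted p is under 0.05), its 95% interval as a bar, and the values without each control library or with the GC correction as coloured marks. PRDX2 is far from 0 in both lines at -0.87 and -1.70, the HT29 marks sit close to the circles, and in SW480 cells the marks of PRDX1 and PRDX5 fall on both sides of 0.

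In the make-up of the family's mRNA, the largest difference was the smaller share of PRDX2. PRDX2 held 17.1% ± 0.07 (SD, n = 2) of the summed TPM of the 6 members in HT29 control libraries and 10.8% ± 0.11 after PRDX2 siRNA. In SW480 cells its share was 22.1% ± 3.2 under control siRNA and 8.52% ± 0.12 after PRDX2 siRNA. It moved from the second most abundant member to the fifth in HT29 cells, above PRDX4, and to the last in SW480 cells. PRDX1 went from 36.1% ± 0.19 to 37.6% ± 0.04 of the sum in HT29 cells and from 35.4% ± 2.6 to 44.5% ± 1.1 in SW480 cells. The share of PRDX3 went from 16.3% ± 0.56 to 19.4% ± 0.13 in HT29 cells and from 11.9% ± 0.40 to 12.2% ± 0.67 in SW480 cells. PRDX4, PRDX5 and PRDX6 held, after PRDX2 siRNA, 4.83%, 16.0% and 11.4% in HT29 cells and 10.5%, 11.3% and 13.0% in SW480 cells. A share rises for every member that falls by a smaller percentage than the family sum, so these shares are a description and no test was made on them.

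**Figure D3:**
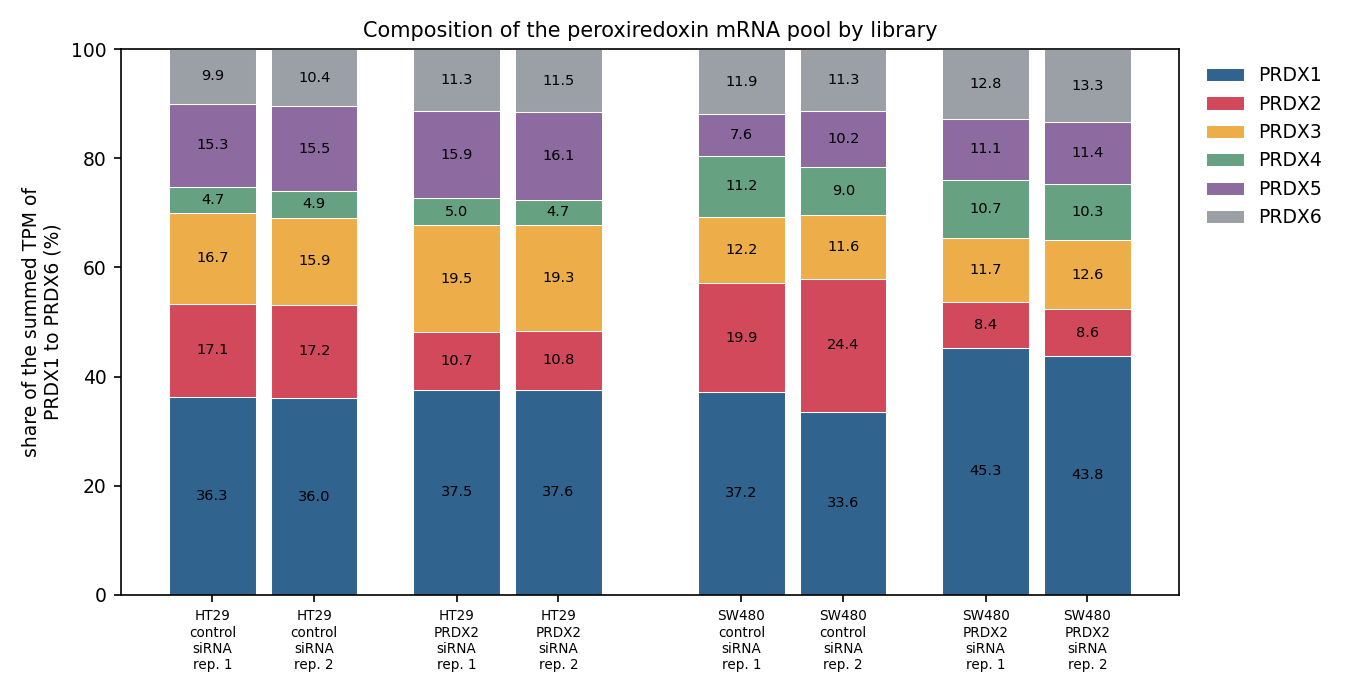
Share of the summed TPM of PRDX1 to PRDX6 held by each member, in percent, for each of the 8 libraries as a stacked bar. The PRDX2 segment narrows from 17.1 and 17.2% to 10.7 and 10.8% in HT29 cells and from 19.9 and 24.4% to 8.44 and 8.61% in SW480 cells.

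The summed family level was lower by about what PRDX2 lost. In HT29 cells the 6 members summed to 1938.8 and 1998.3 TPM in control libraries and to 1807.8 and 1784.6 TPM after PRDX2 siRNA. In SW480 cells they summed to 2420.0 and 2299.4 TPM in control libraries and to 2004.2 and 1997.3 TPM after PRDX2 siRNA. Both PRDX2 siRNA libraries lay below both controls in each line, where the smallest two-sided p of an exact permutation test of 2 against 2 libraries is 0.333, so that none was used. The family sum changed by -172.4 TPM in HT29 cells and by -358.9 TPM in SW480 cells, and PRDX2 alone by -143.9 and -350.5 TPM. The 5 other members summed to 1607.6 and 1654.9 TPM in HT29 control libraries and to 1614.4 and 1591.0 TPM after PRDX2 siRNA. In SW480 cells these 5 summed to 1938.2 and 1739.2 TPM in control libraries and to 1835.1 and 1825.5 TPM after PRDX2 siRNA. The groups overlapped in both lines, and the means changed by -28.5 TPM in HT29 cells and by -8.46 TPM in SW480 cells, less than the SD of 33.4 and 140.7 TPM among the respective controls.

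**Figure D4:**
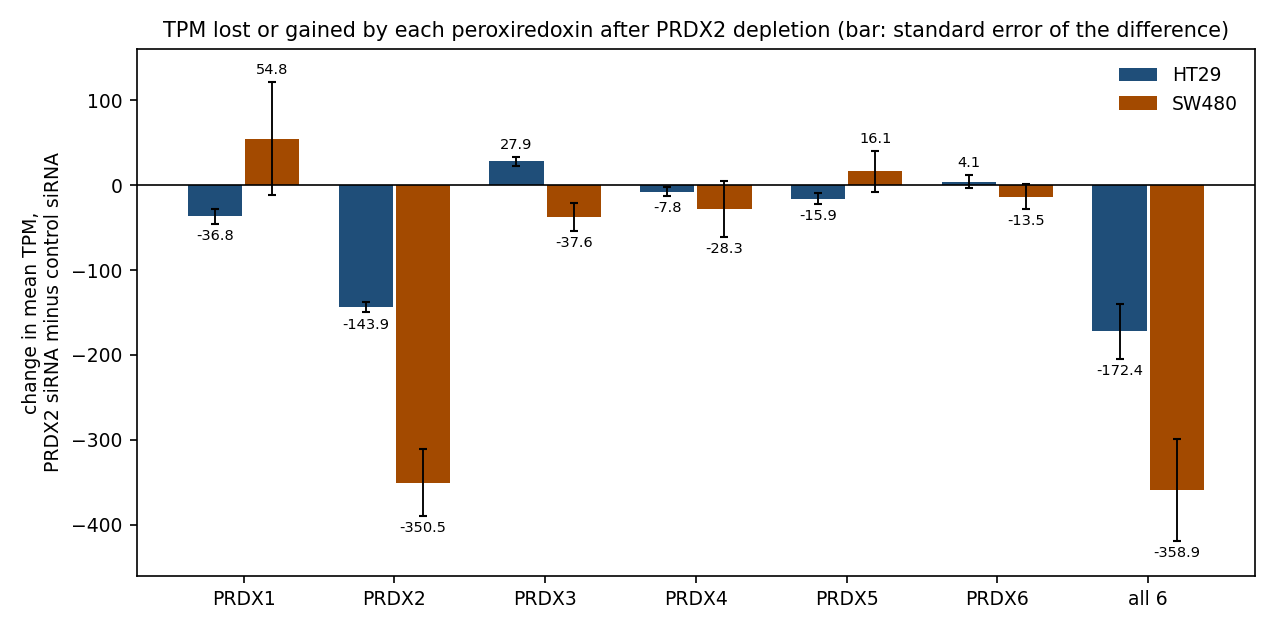
Change in mean TPM, PRDX2 siRNA minus control siRNA, for each peroxiredoxin and for the sum of all 6, in HT29 and SW480 cells, with the standard error of the difference of the means (n = 2 and 2). PRDX2 accounts for -143.9 of -172.4 TPM in HT29 cells and -350.5 of -358.9 TPM in SW480 cells, and in SW480 cells the changes of PRDX1, PRDX4, PRDX5 and PRDX6 lie within 1 standard error of 0.

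The size of a rise that would have offset the loss puts these values on a scale. The TPM lost by PRDX2 equalled 20.2% of the control level of PRDX1 in HT29 cells and 41.9% in SW480 cells, and 8.82% and 19.1% of the control level of the other 5 members together. A log2 rise of 0.27 in PRDX1 alone would have matched the loss in HT29 cells, where the interval of PRDX1 ended at -0.07. In SW480 cells a log2 rise of 0.505 in PRDX1 would have been needed, and its interval ended at 0.25. A rise shared evenly by the 5 others would have had to be 0.12 in HT29 cells and 0.25 in SW480 cells. In HT29 cells the interval of PRDX3 alone ended above 0.12, at 0.13, and in SW480 cells that of PRDX5, at 0.33, ended above 0.25 and that of PRDX1 just below it. The needed rises are on the TPM scale and the intervals on that of counts normalized between libraries. Protein levels were not analysed here.

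Genes that supply, repair or act beside the peroxiredoxins were taken as a list of 34 symbols, of which 32 had rows and the other 2, ERO1A and ERO1B, are newer names of rows listed as ERO1L and ERO1LB. In HT29 cells 29 of them were tested, and 7 passed as higher and 6 as lower (24.1% and 20.7% of those tested), where 7.76% and 9.82% of all genes did. Their median log2 fold change was 0.00, as was that of all genes tested. The list was chosen with earlier results of these data known. All genes tested were not matched to it in expression level, so these shares are a description. In SW480 cells 0 of 32 passed as higher and 1 as lower by edgeR, against 1.22% and 2.1% of all genes, with 6 and 5 at an unadjusted p under 0.05. DESeq2 gave 0 and 1, limma on log2(TPM + 1) 0 and 0, and the correction for GC content 3 in each direction, against 8.21% and 8.16% of all genes. With all 8 libraries fitted together 5 passed as higher and 4 as lower, against 7.28% and 9.07% of all genes. Without SW480 control replicate 1 there were 5 and 6 (11.4% and 13.1% of all genes), without control replicate 2 there were 9 and 11 (26% and 26.8%), and without either PRDX2 siRNA library there were none (0 and 0 at an unadjusted p under 0.05 as higher, and 1 and 1 as lower). The count in HT29 cells was 5 higher and 3 lower by DESeq2 (2.43% and 4.29% of all genes), and 2 higher and 0 lower with all 8 libraries fitted together (0.582% and 0.67%).

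Among the genes that repair or restrain the family, TXNIP, which binds and inhibits thioredoxin, was at 379.6 and 380.9 TPM in HT29 control libraries and at 658.6 and 664.9 TPM after PRDX2 siRNA. The groups were far apart, and TXNIP rose by 0.73 on the log2 scale (SE 0.02, adjusted p = 8.752e-13). SESN2, a stress-induced sestrin, went from 38.1 and 40.0 to 62.9 and 67.3 TPM, with a log2 fold change of 0.67 (SE 0.06, adjusted p = 1.640e-07). In SW480 cells TXNIP had 0.25 (SE 0.12, adjusted p = 0.2496) and SESN2 0.43 (SE 0.18, adjusted p = 0.1842). There TXNIP rose with the correction for GC content (0.37, adjusted p = 0.007061), and SESN2 did not pass with it (0.25, adjusted p = 0.218). Without control replicate 1 and 2 of SW480 cells, TXNIP was at 0.40 and 0.10, and SESN2 at 0.28 and 0.59. SRXN1, the sulfiredoxin that reduces overoxidized peroxiredoxins, was at 66.1 and 67.9 TPM in HT29 controls and at 74.4 and 75.3 TPM after PRDX2 siRNA, with a log2 fold change of 0.10 (SE 0.05, adjusted p = 0.2306). It had 0.26 (SE 0.11, adjusted p = 0.1994) in SW480 cells, where the correction for GC content gave 0.25 with an adjusted p of 0.04311, and it passed without either control library (0.34 and 0.17) and with all 8 libraries fitted together (0.26, adjusted p = 0.04958).

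Of the electron donors, TXNRD1, the cytosolic thioredoxin reductase, rose in HT29 cells, and the 5 others did not pass in either line in edgeR's fit. TXNRD2 in SW480 cells had 0.42 (SE 0.17, adjusted p = 0.1678), and passed with all 8 libraries fitted together (0.42, adjusted p = 0.04181). It was 0.27 without control replicate 1 there and 0.58 without control replicate 2. GSTP1 was -0.01 and 0.34 in the same 2 settings. In HT29 cells GSTP1 had -0.06 (SE 0.04, adjusted p = 0.263), and -0.10 without control replicate 1. TXNRD1 went from 241.9 and 242.3 to 289.5 and 285.8 TPM in HT29 cells, or 0.19 on the log2 scale (SE 0.03, adjusted p = 6.841e-05). In SW480 cells it was at 260.8 and 223.9 TPM in control libraries and at 308.2 and 298.3 TPM after PRDX2 siRNA, with 0.24 (SE 0.10, adjusted p = 0.2013), and 0.34 (adjusted p = 0.003469) with the correction for GC content. It also passed there without either control library (0.34 and 0.13) and with all 8 libraries fitted together, but in HT29 cells it did not pass with all 8 libraries (0.19, adjusted p = 0.2838). TXN, the thioredoxin that reduces the cytosolic enzymes, had -0.05 (SE 0.03, adjusted p = 0.3673) in HT29 cells and -0.27 (SE 0.10, adjusted p = 0.1434) in SW480 cells. There it was 0.01 (adjusted p = 0.9648) with the correction for GC content, and passed as lower without either control library (-0.20 and -0.34). NFE2L2, which encodes the transcription factor NRF2, had 0.29 (SE 0.04, adjusted p = 3.085e-05) in HT29 cells and -0.05 (SE 0.12, adjusted p = 0.8413) in SW480 cells, where it passed as lower without control replicate 2 (-0.19) and was at 0.10 without control replicate 1 and 0.14 with the correction for GC content.

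In the group of oxidative folding genes of the endoplasmic reticulum, where PRDX4 works, 5 of 7 tested genes fell in HT29 cells by edgeR, where 9.82% of all genes did. They were ERO1L, the disulfide oxidase, with -0.23 (SE 0.06, adjusted p = 0.01073), and the disulfide isomerases P4HB, PDIA6, PDIA3 and PDIA4, with log2 fold changes of -0.17, -0.17, -0.09 and -0.08. Of the 5, P4HB and PDIA6 also passed by DESeq2 and by limma, ERO1L, PDIA3 and PDIA4 by neither, and none with all 8 libraries fitted together. In TPM, PDIA3 was at 420.7 and 421.5 in control libraries and at 425.4 and 402.2 after PRDX2 siRNA, and PDIA4 at 383.2 and 394.4 against 382.9 and 385.0, so that both overlapped. GPX8 rose, with 0.50 (SE 0.15, adjusted p = 0.02709), from 4.92 and 4.51 to 7.32 and 6.58 TPM, a call lost without HT29 control replicate 2 (0.44, adjusted p = 0.1372) or PRDX2 siRNA replicate 1 (0.42, adjusted p = 0.1399). ERO1L was also the gene that fell in SW480 cells in edgeR's fit. It went from 103.0 and 69.3 to 53.8 and 54.8 TPM, with a log2 fold change of -0.75 (SE 0.17, adjusted p = 0.04858). With the correction for GC content ERO1L had -0.51 there (adjusted p = 0.003379). P4HB had -0.04 in SW480 cells (SE 0.11, adjusted p = 0.8623), and -0.17 with that correction (adjusted p = 0.04641). It was -0.17 without control replicate 1 and 0.10 without control replicate 2, so that its direction turned. PDIA6 had -0.16 there (SE 0.09, adjusted p = 0.2991), -0.12 and -0.21 in the same 2 settings, and -0.04 with the correction. No gene of the list passed the test in SW480 cells without PRDX2 siRNA replicate 1 or without replicate 2.

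Of the other peroxide-removing enzymes, GPX2, the gastrointestinal glutathione peroxidase, had effects that differed between lines. It went from 915.4 and 957.9 to 824.1 and 830.2 TPM in HT29 cells, or -0.24 on the log2 scale (SE 0.03, adjusted p = 1.796e-05). That fall did not pass with all 8 libraries fitted together (-0.24, adjusted p = 0.1204). In SW480 cells GPX2 was at 79.0 and 78.6 TPM in control libraries and at 101.2 and 106.3 TPM after PRDX2 siRNA, with 0.31 (SE 0.12, adjusted p = 0.1704). It was 0.31 and 0.30 without control replicate 1 and 2 there, and passed with all 8 libraries fitted together. GPX2 did not pass there with the correction for GC content (0.26, adjusted p = 0.05622) or by DESeq2 (0.30, adjusted p = 0.3154). The difference between lines was 0.55 (SE 0.10, adjusted p = 0.03471), and in edgeR's fit GPX2 was the only gene of the list to pass this test, where 1.12% of the 14772 genes tested did. TXNIP passed it too with the correction for GC content (-0.34, adjusted p = 0.009183) and by DESeq2 (-0.49, adjusted p = 0.02101, where 2.11% of all genes did), and GPX8 with the correction for GC content (-0.58, adjusted p = 0.03044). Without SW480 control replicate 1 there were 2 higher and 3 lower, against 4.28% and 5.04% of all genes, and without control replicate 2 there were 7 and 8, against 17.4% and 18.3%. No gene of the list passed it without any 1 HT29 library or without 1 PRDX2 siRNA library of SW480 cells. GPX3, the secreted glutathione peroxidase, rose in HT29 cells with 0.32 (SE 0.07, adjusted p = 0.006406), as did NNT, the mitochondrial transhydrogenase that supplies NADPH, with 0.19 (SE 0.05, adjusted p = 0.01478). GPX3 did not pass without HT29 control replicate 1 (0.17, adjusted p = 0.1012), nor NNT without PRDX2 siRNA replicate 1 (0.15, adjusted p = 0.1409). Catalase (CAT) had 0.12 (SE 0.05, adjusted p = 0.09355) in HT29 cells and -0.02 (SE 0.12, adjusted p = 0.9418) in SW480 cells.

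**Figure D5:**
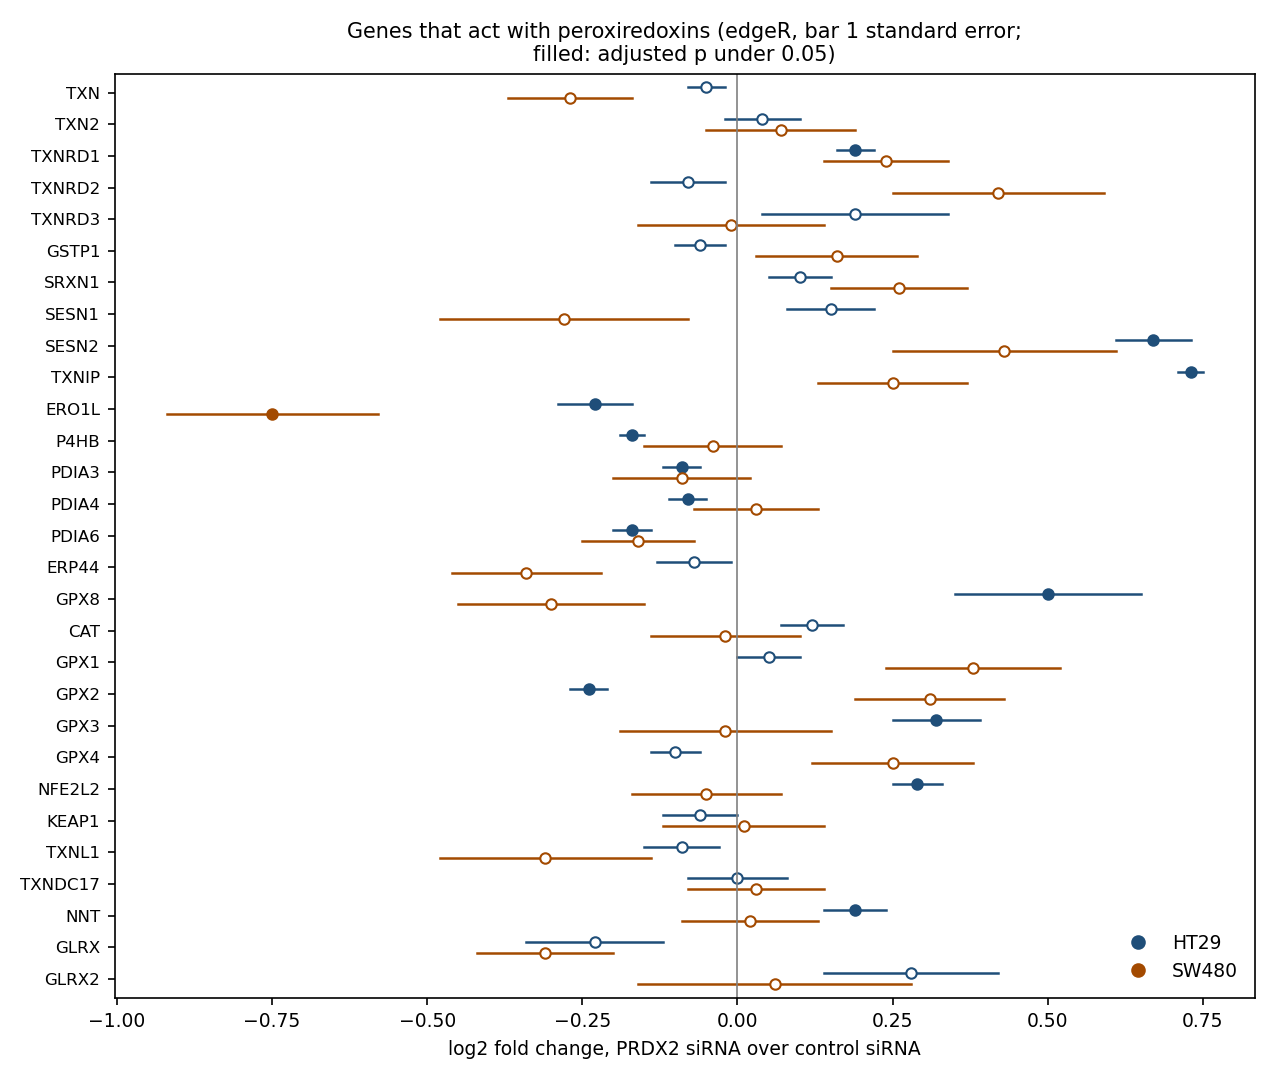
Log2 fold change, PRDX2 siRNA over control siRNA, of the 29 listed genes tested in both HT29 and SW480 cells, with bars of 1 standard error and filled points where the adjusted p is under 0.05. TXNIP at 0.73 and SESN2 at 0.67 are the highest HT29 points, ERO1L at -0.75 is the lowest SW480 point, and the SW480 bars are wider for most of the genes.

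Several members overlap other genes in the annotation of GRCh37 when whole gene spans, introns included, are compared. The library kit does not mark strand, and the counts rest on refGene transcripts, another annotation. Whether reads were shared between these genes was not tested. PRDX2 spans chr19:12907634-12912614 on the minus strand, all of it within the span of HOOK2 on the same strand and nearly all of it opposite an unnamed long non-coding RNA. HOOK2, which links to the cytoskeleton, was at 36.5 and 37.6 TPM in HT29 control libraries and at 31.7 and 34.9 TPM after PRDX2 siRNA, and fell by 0.22 on the log2 scale (adjusted p = 0.04672), while it had 0.21 (adjusted p = 0.4195) in SW480 cells. Its HT29 call was lost by DESeq2 (adjusted p = 0.3909), by limma and without 3 of the 4 HT29 libraries, and in SW480 cells it passed as higher without control replicate 2 (0.40). JUNB, which lies 3505 bases from PRDX2, had 0.10 (adjusted p = 0.1861) in HT29 cells and 0.18 (adjusted p = 0.5597) in SW480 cells, where it passed as higher without control replicate 2 (0.51). PRDX1 spans chr1:45976586-46008404 on the minus strand and shares 2469 bases with MMACHC on the plus strand, which had 0.06 (adjusted p = 0.8508) and 0.31 (adjusted p = 0.3092) in HT29 and SW480 cells. PRDX6 spans chr1:173446469-173457954 and lies wholly opposite the antisense gene PRDX6-AS1, which has no row here. PRDX3 (chr10:120927232-120938324), PRDX4 (chrX:23682379-23704514) and PRDX5 (chr11:64085593-64089283) overlap no other annotated gene on the list of neighbours examined. Processed copies of the members elsewhere in the genome have no rows, and how their reads were assigned was not tested.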

How the data were processed

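The members, the partner list and the tests were chosen with earlier results of these data known. Total RNA was used for libraries made with a kit for poly(A) mRNA that does not mark strand, and paired reads were aligned by the authors to hg19 with MapSplice after FastQC and Fastx-toolkit, as the methods state for HT29 cells; the submitters' processing notes give hg19, FastQC and DESeq2 for all libraries. RSEM then gave the deposited expected counts per refGene gene symbol. TPM, which the authors' software scaled by effective length and then to 1 fixed sum, and FPKM were deposited beside them; FPKM served only to check totals. The shares were taken from the deposited TPM, and the deposited mean transcript length served for an alternative that divides by full length.

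Expected counts were rounded (at most 3.54% were not whole) and tested with edgeR 4.0.16 (TMM, quasi-likelihood, R 4.3.3) on genes that reached 10 counts in 2 or more libraries of the fit, with Benjamini-Hochberg adjustment and a threshold of 0.05. Each line was fitted alone, as was SW480 against HT29 under control siRNA; the difference between lines was the interaction over all 8 libraries. DESeq2 1.42.0, limma 3.58.1 on log2 TPM with a pseudocount of 1 or 0.1, other size factors, no filter, a GC correction (loess offset on transcript GC content, span 0.5, with 89.2% of rows matched), the replicate number as a block, all 8 libraries together and each library left out were alternatives. On simulated data with 200 genes changed by 1 on the log2 scale, 100% were recovered in HT29, 95.5% in SW480, 93.5% for the difference and 96.5% between lines (12836, 13978, 14380 and 14072 genes), and 6.54%, 4.98%, 5.08% and 1.53% of calls were false. The simulated counts had 1 common spread for all genes and no trend along GC content, unlike the SW480 libraries. They do not measure how readily a paralog's rise smaller than 1 would be found. Named genes were the members, the partner list, annotated neighbours and, for each member, the 3 genes with the most similar CPM over the 8 libraries. Coordinates, transcripts and GC content came from GENCODE on GRCh37. Intervals and floors cover counting error or the spread between duplicates only.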

Additional observations from a re-analysis of the deposited data

Results flagged for a closer look

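The effect of PRDX2 siRNA on PRDX2 itself differed between the lines when that difference was itself tested with edgeR. SW480 minus HT29 cells, the log2 fold changes differed by -0.84 (SE 0.12, adjusted p = 0.01278), with PRDX2 lower in 2 of 2 PRDX2 siRNA libraries of each line. It passed the test without either SW480 control library and with the correction for GC content, at -0.97 (adjusted p = 1.390e-06). Without any 1 HT29 library or 1 PRDX2 siRNA library of SW480 cells the value stayed between -0.86 and -0.81, with adjusted p from 0.1219 to 0.1592. The cause of the difference was not tested.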

How the results depend on the processing

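Of the values of single members, 65 of 78 in HT29 cells, 66 of 78 in SW480 cells, 78 of 96 for the difference between lines and 69 of 78 between lines under control siRNA kept direction and side of the threshold over all alternatives run. PRDX2 kept both in HT29 and in SW480 cells under all of them. The number of members called went from 2 to 1 in HT29 cells and from 1 to 2 in SW480 cells with all 8 libraries fitted together, and from 1 to 2 for the difference with the GC correction. Leaving out each library gave 2 to 3 members called in HT29 cells, 1 to 5 in SW480 cells, 0 to 3 for the difference and 2 to 6 between lines.

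The replicate numbers are shared between groups, but same-numbered libraries deviated together with correlations of only 0.07 in HT29 cells, 0.15 in SW480 cells and 0.18 between the controls, and 2 pairs a line do not show a pairing. With the replicate block, 3 members were called in HT29 cells (PRDX5 at -0.14, adjusted p = 0.02539 by edgeR), where 22.3% of all genes were. That block gave 1 member in SW480 cells (12.2% of all genes), 1 for the difference (1.33%) and 5 between lines (36.9% of all genes higher and 33.1% lower). All genes called in SW480 cells went from 468 to 1727. With the GC correction and the replicate block, 4, 2, 2 and 5 members were called (PRDX4 at -0.20 in HT29 and -0.23 in SW480 cells). All genes called were then 3048 (24.6%), 3074 (22.8%), 923 (6.57%) and 10798.

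Values that turned direction were not past the threshold in either fit. In HT29 cells PRDX6 was at 0.03 by limma with either pseudocount and at 0.02 without control replicate 2. In SW480 cells PRDX1 was at -0.10 without control replicate 2 and at -0.02 without PRDX2 siRNA replicate 1, and PRDX5 at -0.18 with the GC correction, with or without the block, and at -0.15 without control replicate 1. For the difference between lines, PRDX4 was at 0.12 and PRDX5 at -0.01 without SW480 control replicate 1. With the GC correction PRDX5 was at -0.05 and PRDX6 at 0.03, and with the block added at -0.04 and 0.03, while PRDX1 passed the test at 0.29 in both. Over the libraries left out in turn, PRDX6 in HT29 cells ranged from -0.09 to 0.02, PRDX1 in SW480 cells from -0.10 to 0.11 and PRDX5 there from -0.15 to 0.21, and the differences between lines of PRDX4 and PRDX5 from -0.25 to 0.12 and from -0.01 to 0.37. The cause was not tested.

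All genes called in HT29 cells numbered 2279, against 871 by DESeq2 and 185 with all 8 libraries. In SW480 cells they numbered 468, against 214 and 177 by limma with pseudocounts 1 and 0.1, 2205 with the GC correction, 2415 with all 8 libraries and 87 to 7363 with 1 library left out (7363 without control replicate 2, 3437 without control replicate 1). For the difference they numbered 166, against 267 without a filter, 311 by DESeq2, 103 and 43 by limma, 888 with the GC correction and 6 to 5237 with 1 library left out. The split of higher and lower calls was 1006 and 1273 in HT29 cells against 1252 and 548 by limma on TPM, 172 and 296 in SW480 cells against 126 and 88 by limma and 1106 and 1099 with the GC correction, and 75 and 91 for the difference against 59 and 44, and 506 and 382. Of the 24 shares, dividing by full length moved 6 by more than their SD, by at most 0.29 points. Left-out libraries leave 1 sample in a group, which is then assumed to vary like the other group.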

Other observations

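For each member, the 3 genes with the most similar level over the 8 libraries were found by Pearson's correlation of log2 CPM among 10503 genes with a mean of at least 10 CPM. The 8 points share lines, treatment and the GC content of their libraries, so the values are a description. PRDX2 was most like PPIA, the cyclophilin A gene, with r = 0.992, then CDK19 and RPL15, both with 0.957. PPIA was at 1216 and 1204 CPM in HT29 control libraries and at 1102 and 1096 CPM after PRDX2 siRNA, and at 1275 and 1310 against 1084 and 1067 CPM in SW480 cells, so it shared the order of the groups with PRDX2 over a much narrower range. PRDX1 was most like MAP3K8 (0.991), PRDX3 like IVNS1ABP, FOXJ3 and EPC2 (each 0.995), PRDX4 like the proteasome subunit gene PSMC6 (0.999), PRDX5 like FLJ45340 (0.999) and GUK1 (0.997), and PRDX6 like STRN (0.996). FLJ45340 and PRDX5 were both lower in SW480 control replicate 1 than in control replicate 2, at 24.9 against 42.6 CPM and 67.9 against 87.4 CPM.

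The deposited mean transcript length weights the isoforms of a gene by their estimated abundance. That of PRDX5 was 897.55 to 901.02 bases in HT29 cells and 888.01 to 893.04 in SW480 cells, which did not overlap between lines. PRDX3, PRDX4 and PRDX6 had a single length in all 8 libraries. The length of PRDX2 was 1006.37 to 1008.00 bases in HT29 cells and 1004.96 to 1006.54 in SW480 cells.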
